A study of Caenorhabditis elegans with 4 samples.

Results

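In embryos of the nematode Caenorhabditis elegans, 3058 regions were listed for the tagged transcription factor NHR-237 in both ChIP replicates. They are missing from the authors' combined list of binding regions. A line in a replicate list is not by itself a call of binding, since the thresholds behind the lists are not given. These uncombined regions are lines of the replicate 1 list on the nuclear chromosomes that share at least 1 bp with a replicate 2 region and none with a combined region. They were therefore chosen by the authors' own region lists, that is by where a region was found in each sample and by how the lists were merged. They made up 36.8% of the 8318 nuclear regions of replicate 1 (95% interval 35.7 to 37.8) and 62.2% of the 4917 that overlapped replicate 2 (60.8 to 63.6). The other nuclear replicate 1 regions comprised 1859 found in all 3 lists, 3396 found in neither other list, termed single-list regions here, and 5 that overlapped a combined region but no replicate 2 region.

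The study precipitated chromatin with anti-GFP antibodies from 2 embryo samples of strain OP228, and kept a part of each lysate as input DNA. The strain carries unc119(ed3) and the transgene wgIs228, in which nhr-237 is joined to TY1, EGFP and FLAG tags beside an unc119 marker, and which was introduced by bombardment. All 4 samples, 2 ChIP and 2 input, came from mixed populations of males and hermaphrodites grown at 20 °C and carried that transgene, so none lacked the tag. Whether the replicates were separate cultures is not stated, and the spread between them may be technical.

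NHR-237 belongs to the nuclear hormone receptors, transcription factors with a zinc-finger domain that contacts DNA and a domain that in many members binds a small lipophilic ligand. The family is greatly expanded in nematodes, and most of its worm members are related to the vertebrate receptor HNF4. In ChIP-seq, a bound factor is crosslinked to DNA and the recovered fragments pile up around the binding site. The irreproducible discovery rate (IDR) procedure, named in the source field of these lists, pairs regions of replicate samples and keeps well-ranked ones whose ranks are reproducible. How the combined list was made from the samples is not stated beyond that name.

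Each line of a list gives a position on WormBase WS220, a score of unnamed scale and a peak number. Over each replicate list as a whole, peak numbers decreased as scores rose (rho of -0.9998 in each). A smaller number is read as a better rank. The score is tied at its top, with 306 regions at the highest value in replicate 1 and 863 in replicate 2. Among these tied regions the order rests on the peak number alone. Below the tied value the score could run the other way over short stretches. Uncombined regions numbered 743, 755 and 790 in replicate 1 scored 2.13, 2.14 and 2.16. A ranking by score would therefore reorder some of the regions named below. The replicate 1 list ran to peak number 8326 and the replicate 2 list to 12698. Both values are the authors' and only order regions within a list. Depth is unknown, since the lists hold no read counts. Intervals on shares are exact Clopper-Pearson 95% intervals over regions, those on medians are exact binomial intervals, and both cover counting error only. Every set compared below comes from the same 2 ChIP samples and regions are not replicates, so differences between sets are described with their intervals and were not tested for significance.

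The uncombined regions centred on the middle of the replicate 1 order, and their partners leaned to the better side of the replicate 2 order. Their replicate 1 peak numbers ran from 275 to 8322 with a median of 4161.5, and those of their replicate 2 partners ran from 643 to 12696 with a median of 4543.5. For the regions in all 3 lists the medians were 950 and 845. The partner is the overlapping replicate 2 region with the smallest peak number, which favours replicate 2. Scores followed the same order: the median score of the uncombined regions was 0.178 in replicate 1 and 0.263 in replicate 2, against 1.98 and 3.24 for the regions in all 3 lists. These ranks and scores entered the choice of members through the combined list, and they only describe where the set lies.

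Each list was divided into 10 equal rank classes. In the first class of replicate 1, with peak numbers up to 833, uncombined regions made up 0.481% (4 of 831 nuclear regions, 0.131 to 1.23). The share was 8.42% when an overlap had to span 50% of both regions. That setting also applied to the overlap with combined regions, so it counts lines that overlap a combined region by less. Under the 1 bp rule, uncombined regions made up 24.2% (21.3 to 27.2) of the second class and 53.8% (50.4 to 57.3) of the third. The share was highest in the fourth, peak numbers 2499 to 3331, with 467 of 833 regions or 56.1% (52.6 to 59.5). From there it was smaller in each further class, down to 30.3% (27.2 to 33.5) in the last, where 67.8% of regions were single-list. Applied to the replicate 2 list, the same rule gave 3211 regions, 25.3% of 12682 (24.6 to 26.1). They were most frequent in the third class of that list, at 46.7% (43.9 to 49.4), and made up 18.8% (16.6 to 21.0) of the last.

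**Figure D1:**
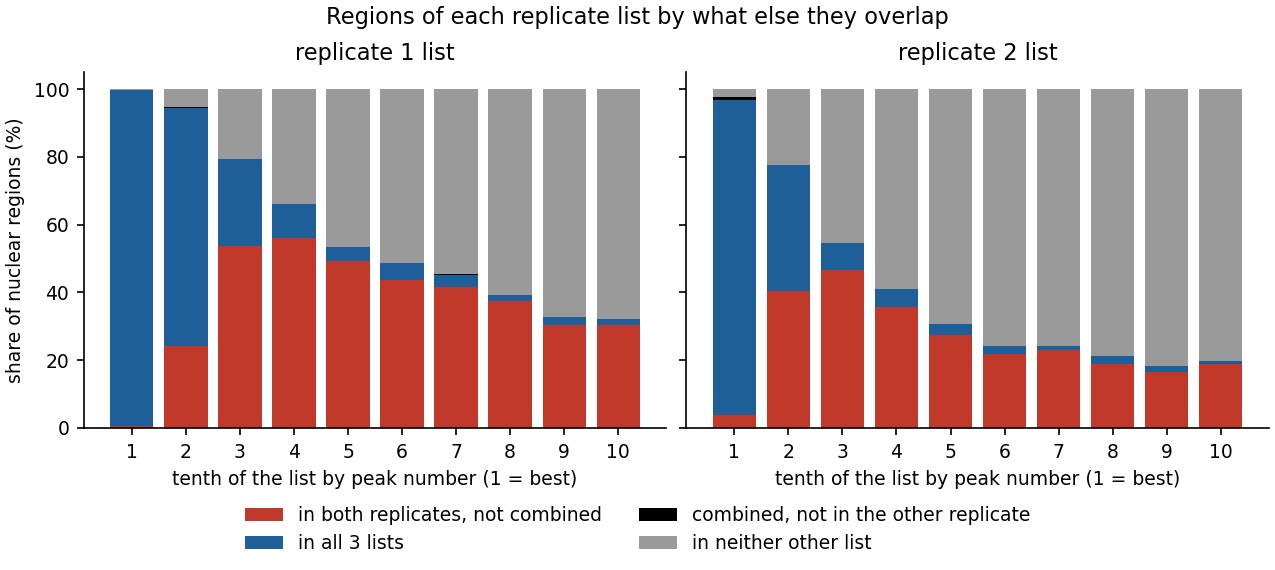
Stacked bars give, for each of 10 equal rank classes of the replicate 1 list (left) and of the replicate 2 list (right), the percentage of nuclear regions in each overlap class. Uncombined regions (red) are 0.481% of the best class of replicate 1 under the 1 bp rule, reach 56.1% in the fourth, and give way to regions found in neither other list (grey). The first value is 8.42% when 50% of both regions had to overlap, which also admits lines that overlap a combined region by less.

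The ranks of an uncombined region often differed between the 2 samples. Taking the best 20% of each list, 42 uncombined regions (1.37%, interval 0.992 to 1.85) stood in that of both, 163 in that of replicate 1 only and 580 in that of replicate 2 only, while 2273 or 74.3% (72.7 to 75.9) stood in neither. Of the regions in all 3 lists, 72.3% (70.2 to 74.3) stood in the best 20% of both. Of these regions in all 3 lists, 65 stood in that of replicate 1 only and 434 in that of replicate 2 only. The best 20% runs to peak number 1666 in replicate 1 and to 2540 in replicate 2. The choice of partner also favours replicate 2. When each peak number was expressed as a percentage of its list, the positions of an uncombined region in the 2 lists differed by a median of 22.1 percentage points (quartiles 10.1 and 39.5), against 5.07 points (1.67 and 12.4) for the regions in all 3 lists. Across the 3058 uncombined regions Spearman's rho between the replicates' peak numbers was 0.19, and Pearson's r was 0.19. Across the 1859 regions in all 3 lists rho was 0.48 and r was 0.16, so by Pearson's r the latter were no closer. Both sets share the libraries and were formed through the combined list, so the shares, gaps and coefficients are a description. Most regions in all 3 lists stand at good ranks in both samples, which leaves less room for a gap. The gaps were not compared within equal ranks.

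**Figure D2:**
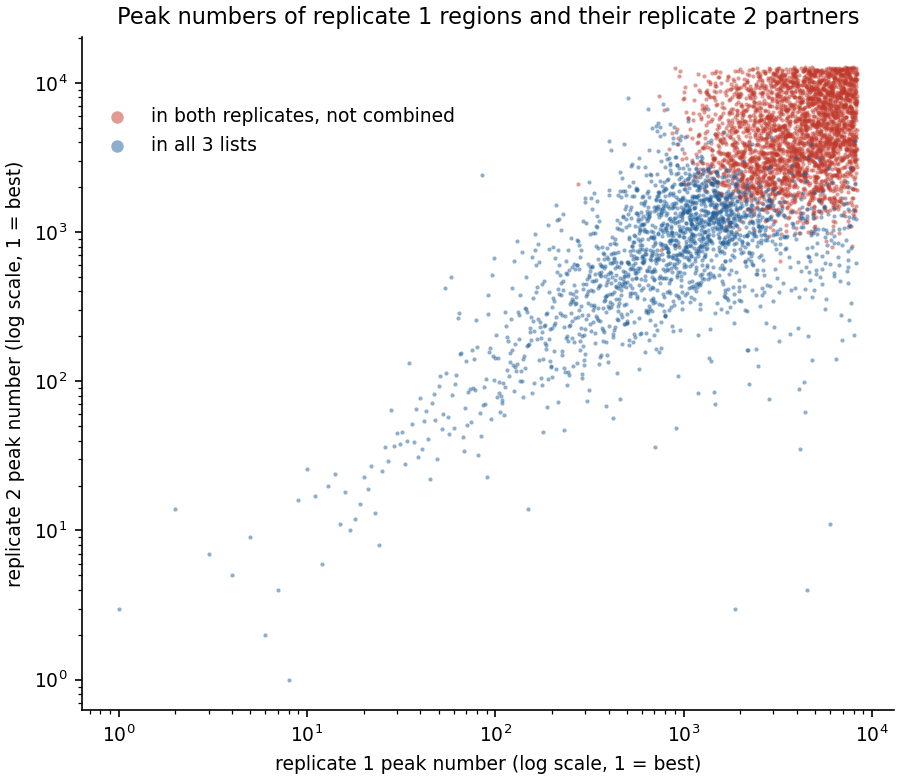
Each point is a replicate 1 region at its replicate 1 peak number (horizontal) and its partner's replicate 2 peak number (vertical), both on log scales with 1 as the best. Uncombined regions (red, n = 3058) fill the corner of large peak numbers, and regions in all 3 lists (blue, n = 1859) follow a band from the smallest numbers; the groups mix between about 1000 and 4000.

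The edge of the combined list is gradual rather than sharp in these ranks. With both peak numbers at most 500, all 357 paired regions were in the combined list. With both at most 1000, 2 of 717 were uncombined, with both at most 2000 it was 37 of 1414 (2.62%, 1.85 to 3.59), and with both at most 4000 it was 759 of 2467 (30.8%, 28.9 to 32.6). On the other side, the 3 regions in all 3 lists with the largest peak numbers lay at II 66402 to 66865 (8270 in replicate 1 and 1215 in replicate 2), IV 13887662 to 13888125 (8260 and 623) and III 11290598 to 11291061 (8181 and 4049). All 3 had their replicate 2 partner shifted by 204 to 215 bp to the left. Several replicate 1 lines can overlap 1 combined region. Taking the best replicate 1 line of each of the 1664 combined regions with a region in both samples, 95% had their larger peak number at or below 3118. At or below that value stood 410 uncombined regions.

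A pair of uncombined regions ranked within the first 1000 of both samples. The region on III at 7520582 to 7521045 had peak number 755 and a score of 2.14 in replicate 1. Its replicate 2 partner at 7520543 to 7521012 had peak number 764 and a score of 3.24, the value at which 863 regions of that list tie, and shared 431 bp with it. The nearest combined region lay 20793 bp away and was itself numbered 1532 of 1679. In the combined list peak numbers followed scores less closely (rho of -0.84), with 1123 regions tied at the top score. The region on II at 10174211 to 10174674 had peak number 934 and a score of 1.99 in replicate 1. Its partner at 10174230 to 10174699 had peak number 825, again with the tied score of 3.24, and shared 445 bp with it. The nearest combined region lay 4478 bp away. Their larger peak numbers, 764 and 934, are smaller than the median of 1156.5 among the best lines of the combined regions.

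The next 4 by the larger of both peak numbers were ranked between 1270 and 1638 in both samples. They lay on III at 5108605 to 5109068 (1476 in replicate 1, 1270 in replicate 2), IV at 10342293 to 10342756 (1481 and 1440), IV at 8375325 to 8375788 (1538 and 1635) and X at 10555413 to 10555876 (1638 and 1496). In the first of these the midpoints of the samples lay 318 bp apart and only 149 bp were shared. In the other 3 the midpoints lay 30, 33 and 101 bp apart. Combined regions were between 3236 and 12928 bp away from these 4, so none was a close neighbour of one.

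The 10 uncombined regions with the best replicate 1 peak numbers mostly had a larger peak number in replicate 2. This follows largely from the choice. They were picked by replicate 1 rank from outside the combined list, which held 715 of the 717 pairs with both numbers at most 1000. The best was on IV at 3050448 to 3050911, with peak number 275 and the tied top score of its list, 2.79. Its partner at 3050677 to 3051146 was number 2100 in replicate 2 and lay 232 bp to the right. The next ones lay on I, III and V. On I at 853093 to 853556 a region ranked 743 in replicate 1 and 8195 in replicate 2, although its midpoints lay 3 bp apart and all 464 bp were shared. On III, besides the region already described, 5836742 to 5837205 ranked 790 and 6558, and 11920116 to 11920579 ranked 869 and 4593. On V, 7727848 to 7728311 ranked 840 and 3614.

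Chromosome I also held 8529986 to 8530449, numbered 900 in replicate 1 and 12599 in replicate 2, close to the end of that list, and 4602856 to 4603319, numbered 928 and 4890. Another lay on IV at 9718370 to 9718833, with 931 and 4296. The last was the II region already described, with 934 and 825. Thus 8 of the first 10 had a replicate 2 number of 2100 or more. The best uncombined region on X, at 14602494 to 14602957, ranked 961 in replicate 1 and 11927 in replicate 2. The 3 best replicate 2 partners, picked after their values were seen, had numbers 643, 764 and 800. The first belonged to IV 9931987 to 9932450, which was number 3245 in replicate 1, and the last to V 1264114 to 1264577, number 6134 in replicate 1. The partner numbered 764 was that of the III region described above, which ranked 755 in replicate 1.

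The samples also placed an uncombined region farther apart than a region in all 3 lists. The midpoints of the paired replicate regions lay a median of 81 bp apart in the uncombined regions (interval 77 to 86) and 29 bp apart (27 to 32) in the regions of all 3 lists. They lay within 50 bp in 38.5% (36.7 to 40.2) of the uncombined regions, against 64.9% (62.7 to 67.0). They lay more than 200 bp apart in 22.2% (20.8 to 23.8), against 7.91% (6.72 to 9.23). The replicate 2 midpoint was to the right in 1470 uncombined regions, to the left in 1550 and at the same base in 38, so neither side prevailed by much. The least overlap was at IV 4356797 to 4357260, where the midpoints lay 452 bp apart and 15 bp were shared, followed by IV 8232441 to 8232904 (446 bp apart) and V 15468427 to 15468890 (445 bp apart).

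Part of this difference goes with rank. The median offset of the uncombined regions was 73 bp (63 to 79) in the best of 4 equal groups by replicate 1 peak number, 78 and 83 bp in the next ones, and 102.5 bp (87 to 115) in the last. Where the larger peak number was 1001 to 2000, 35 uncombined regions had a median offset of 101 bp (41 to 145), against 31 bp (25 to 33) in 662 regions of all 3 lists. At 2001 to 3000 the medians were 69.5 bp (54 to 78) and 42 bp (30 to 52). At 3001 to 4000 they were 73 bp (63 to 84) and 75.5 bp (45 to 167), so in that range the sets did not differ beyond counting error. How the authors paired regions for the combined list is not given in the sources used here.

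**Figure D3:**
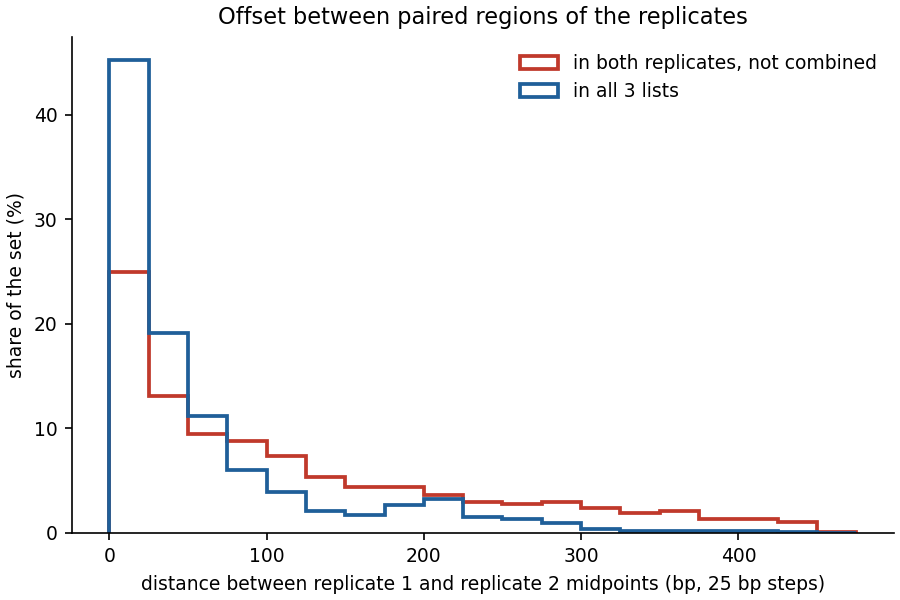
Outlined histograms in 25 bp steps give the distance between the midpoints of paired replicate 1 and replicate 2 regions, as a percentage of the uncombined regions (red, n = 3058) and of the regions in all 3 lists (blue, n = 1859). The red curve is lower near 0 and has a longer tail, with medians of 81 bp and 29 bp.

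All 3058 uncombined regions were exactly 464 bp wide, the fixed width of the replicate 1 list, and all their partners were 470 bp wide, that of replicate 2. Other widths occurred in 90 of the 1859 regions of all 3 lists and in 0 of the 3396 single-list regions, so every nuclear replicate 1 region of another width was in the combined list. Uncombined regions also came in overlapping lines: 514 of them (16.8%) overlapped another uncombined region, in 259 pairs, against 25.7% of the regions in all 3 lists and 7.18% of the single-list regions that overlapped another of their kind. Merging left 2799 separate stretches that cover 1.36 Mb, against 0.757 Mb for the combined regions. A partner was often shared, since 251 replicate 2 regions served 2 uncombined regions each and 2 served 3 each. The other way round, 476 uncombined regions overlapped 2 or more replicate 2 regions.

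The share of the uncombined regions was close to that of the single-list regions for chromosome I and lay between both sets for chromosome V. Chromosome I held 492 uncombined regions, or 16.1% (14.8 to 17.4), against 21.0% (19.0 to 23.0) of the combined regions and 15.8% (14.6 to 17.1) of the single-list regions. Chromosome V held 474, or 15.5% (14.2 to 16.8), against 13.5% (11.9 to 15.2) of the combined and 17.5% (16.3 to 18.8) of the single-list regions. The X chromosome, present as a single copy in males, held the most of any chromosome, 595 or 19.5% (18.1 to 20.9), against 16.4% (14.7 to 18.3) of the combined and 18.8% (17.5 to 20.1) of the single-list regions. Of these pairs, only chromosome I against the combined list had intervals that did not meet.

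Chromosomes II, III and IV held 494 (16.2%), 528 (17.3%) and 475 (15.5%) uncombined regions, with shares of the combined list of 15.9%, 18.2% and 15.0%. Per length, chromosome III was densest with 38.3 uncombined regions per Mb, followed by X with 33.7, I with 32.7, II with 32.3, IV with 27.2 and V with 22.7. Chromosome V had the fewest per Mb in all 3 sets (10.8 combined and 28.5 single-list regions). There were 1.82 uncombined regions for each combined region in all, from 1.40 on I to 2.16 on X.

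Along the autosomes the uncombined regions were concentrated in the middle, as the combined regions were. The single-list regions as a whole set were not, but those with replicate 1 peak numbers from 275 to 2716 were, as described below. Worm autosomes have a gene-dense, slowly recombining centre between arms that are richer in repeats, whereas X is more uniform. Of 2463 autosomal uncombined regions, 988 or 40.1% (38.2 to 42.1) lay in the middle one of 3 equal parts of their chromosome, where an even spread would put 33.3%. The share was 40.9% (38.3 to 43.5) for the combined regions and 33.5% (31.8 to 35.3) for the single-list regions. It was highest on II, at 44.9% (40.5 to 49.4), and lowest on III, at 36.0% (31.9 to 40.2), whose interval includes the even share. On V it was 40.1% (35.6 to 44.7), against 49.1% (42.4 to 55.8) for the combined regions of that chromosome.

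On X the middle part held 28.6% (24.97 to 32.4) of the uncombined regions, less than an even spread, and 29.0% (23.7 to 34.7) of the combined regions. The right-hand part of X held 238 of 595, or 40.0% (36.0 to 44.1), against 38.4% (32.6 to 44.4) of the combined and 31.2% (27.7 to 35.0) of the single-list regions. The parts of X were not compared within equal ranges of peak number, so a share of rank in this difference was not tested.

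Single-list regions have poorer ranks, with a median replicate 1 peak number of 5724, so the middle shares were also set side by side within the same ranges of peak number. This comparison was chosen after the values were seen. From 275 to 2716 the autosomal middle share was 43.2% (39.3 to 47.2) in the uncombined and 42.6% (36.2 to 49.2) in the single-list regions. From 2717 to 4160 it was 40.1% (36.2 to 44.1) and 36.3% (32.0 to 40.8). From 4163 to 5960 it was 39.4% (35.5 to 43.5) and 31.7% (28.4 to 35.1), and from 5966 to 8322 it was 37.6% (33.8 to 41.6) and 32.1% (29.5 to 34.7). Only from 4163 to 5960 did the intervals of the sets not meet.

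**Figure D4:**
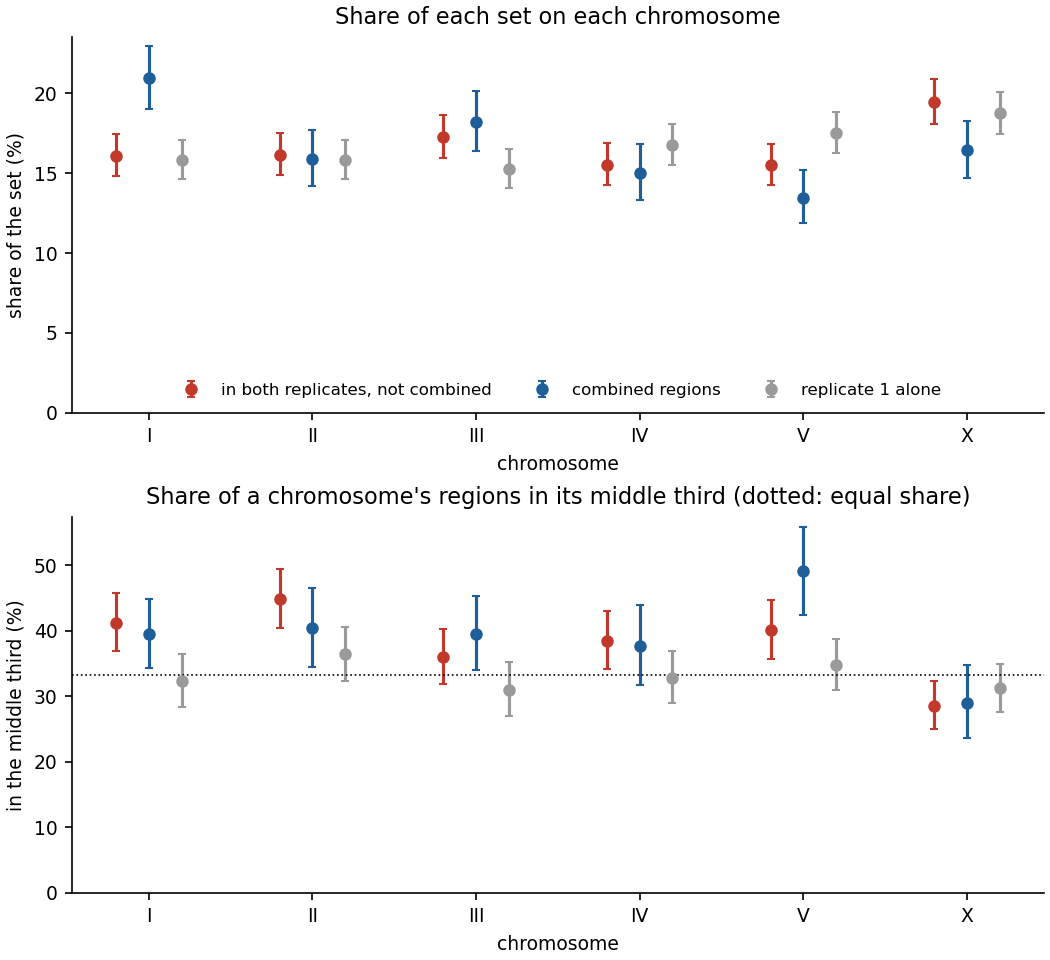
Points with exact 95% binomial intervals give the percentage of each set on each chromosome (top) and the percentage of a chromosome's regions in its middle part of 3 (bottom; the dotted line is the even share of 33.3%). Uncombined regions (red) lie below combined regions (blue) on I in the upper panel, and their intervals meet those of the combined regions on every chromosome in the lower one; single-list regions are grey.

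In 97 whole bins of 1 Mb, the number of uncombined regions ran from 7 to 57 with a median of 30. The fullest bins were X from 13 to 14 Mb with 57, III from 5 to 6 Mb with 56 and II from 8 to 9 Mb with 53. The emptiest were IV from 15 to 16 Mb with 7, V from 17 to 18 Mb with 8 and V from 16 to 17 Mb with 11. The X bin with 57 uncombined regions held 18 combined and 36 single-list regions, and the IV bin with 7 held 7 and 17. Across the 97 bins, the count of uncombined regions had a Spearman's rho of 0.56 with that of combined regions and 0.38 with that of single-list regions. All 3 counts share the same libraries, and they may share mappability and gene density, which were not measured.

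Few uncombined regions were flanks of a combined region. The median uncombined region had 16991.5 bases between it and the nearest combined region (15892 to 17906; quartiles 5375 and 37782). For single-list regions the median was 19470.5 (18446 to 20434). Within 1000 bp of a combined region lay 151 uncombined regions, or 4.94% (4.20 to 5.77), against 4.74% (4.05 to 5.51) of the single-list regions. The sets parted at longer range: 36.8% (35.0 to 38.5) of the uncombined and 32.1% (30.6 to 33.7) of the single-list regions had a combined region within 10 kb. Within the same 4 ranges of replicate 1 peak number, however, the intervals of the median distances met in each range: for example, from 275 to 2716 the medians were 16173 bp (14289 to 17851) in the uncombined and 18891.5 bp (15170 to 21759) in the single-list regions. The 151 near ones had a median peak number of 3959 in replicate 1 and 4830 in replicate 2, against 4178 and 4511 for the other 2907. No intervals were computed for these medians, so no difference is read from them.

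**Figure D5:**
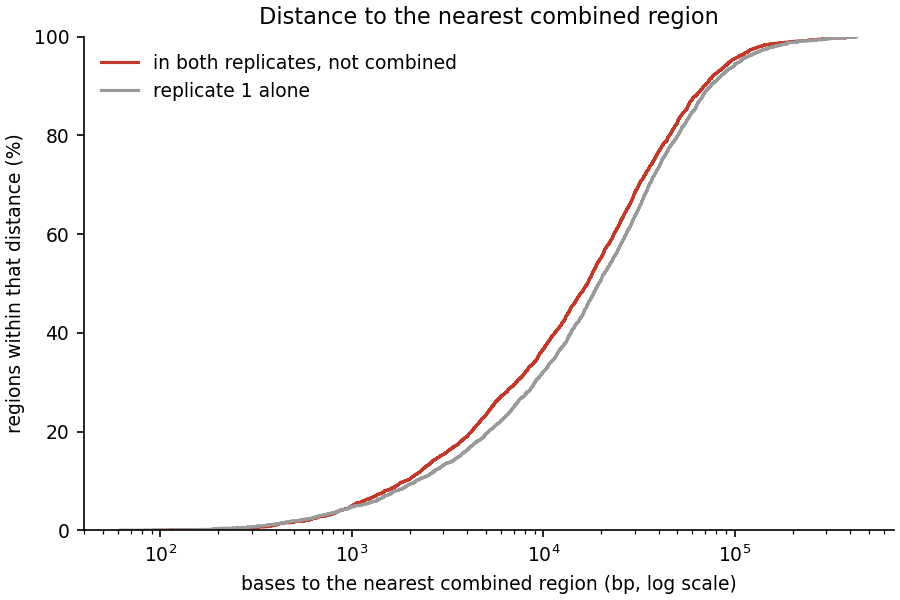
Cumulative curves give the percentage of uncombined regions (red, n = 3058) and of single-list regions (grey, n = 3396) that have a combined region within the distance on the horizontal log axis, in bp. The curves run together up to about 1000 bp and the red one then lies above, with 36.8% against 32.1% at 10 kb.

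By chromosome, the median distance was shortest on I, at 13052.5 bp (11218 to 15755), where combined regions are densest, and longest on V, at 22784 bp (16567 to 28154). On X it was 19217 bp (17202 to 22382), against 23419 bp (20782 to 25741) for single-list regions there. On II the order was the other way, with 17161 bp (14297 to 20222) in the uncombined and 16894.5 bp (15152 to 18938) in the single-list regions, and the intervals meet on both chromosomes. The closest neighbours were I 11930497 to 11930960 (92 bases from a combined region), IV 11821829 to 11822292 (112 bases) and II 5335218 to 5335681 (116 bases). The most remote were II 1765261 to 1765724, with 429787 bases to the nearest combined region, II 1735881 to 1736344 with 415097, and IV 16047315 to 16047778 with 400312. The first of these was number 2745 in replicate 1 and 7368 in replicate 2 and its midpoints differed by 2 bp, so both samples placed it alike in a stretch without combined regions. The shortest overlaps that kept a replicate 1 region out of the set were 13 bp at V 5790527 to 5790990, 74 bp at IV 12724791 to 12725254 and 88 bp at X 4388978 to 4389441.

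For 5 uncombined regions a replicate 2 region that they overlapped did itself overlap a combined region, so that the 3 lists form a chain of overlaps there. They were the first and the second of the closest neighbours just named, and I 6835755 to 6836218, II 5292894 to 5293357 and II 5661060 to 5661523, named after their values were seen. Between uncombined regions themselves, the median distance to the next one was 5863 bases, and 8408 once overlapping lines were merged. The median combined region had 8745 bases between it and the nearest uncombined region and 14270 between it and the next combined one.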

How the data were processed

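Of the 4 samples, the 2 ChIP samples each have a list of regions, and 1 combined list belongs to no single sample. The scores, peak numbers and positions were made by the authors with SPP followed by IDR, on WormBase WS220, per the file headers and source fields; aligner, versions, thresholds, use of the input and the merging rule were not given in the sources used. A line's score is the deposited value, on a scale the headers do not name.

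Overlaps of at least 1 bp were found with bedtools 2.31.1, while Python 3.11.15 (scipy 1.17.1, numpy 2.4.6, pandas 2.3.3) gave counts, medians and intervals, and matplotlib 3.10.9 the plots. A chromosome's extent was taken between the outermost bases of the 3 lists. The code was tested on simulated data. The members, lists and comparisons were chosen with earlier results of these data known. Regions were named by rule: the first 10 by replicate 1 peak number, the best of each chromosome, the 6 smallest by the larger peak number, and the 3 at each extreme of distance, offset and overlap. Mitochondrial regions are outside the rule. Genes and sequences were not used, since the gene table at hand is on another assembly, WBcel235. Alternatives covered overlap, pairing, the list that supplies the lines, and replicates.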

Additional observations from a re-analysis of the deposited data

Results flagged for a closer look

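Mitochondrial DNA lies outside the rule that defines the uncombined regions. The replicate 1 list holds 8 regions there and the replicate 2 list 16, and the combined list holds 0. Of the 8, 6 overlap a replicate 2 region and, with no combined region there to overlap, would be uncombined regions if the rule took in mitochondrial DNA. Their replicate 1 peak numbers run from 367 to 6875.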

How the results depend on the processing

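Of 84 comparisons with an alternative setting, 63 stayed within the counting interval of the main value or, for the number of regions, within 1.5 times of it. In 1 setting, regions had to share 50% or more of both lengths, with replicate 2 and with combined regions alike. It thus admits lines that overlap a combined region by less. The share of uncombined regions in the first of 10 rank classes was then 8.42%. In the third to the last it was 49.2%, 49.6%, 43.3%, 36.9%, 36.1%, 31.4%, 25.1% and 22.8%. The median offset was then 55 bp. That offset was 71 bp with the partner of nearest midpoint, whose median replicate 2 peak number was 4872, and 74 bp in the better 50% of regions, where chromosome III held 19.1%. The middle 50% of the autosomes held 58.3%. Without replicate 1 or 2, that is without asking for a counterpart, II held 14.7% to 16.0%, V 16.6% to 16.9%, the middle part 36.2% to 36.6%, and the median distance to a combined region was 18196.5 to 19289 bp. These settings admit other regions; no further cause was tested. No paired analysis was possible because no input region list, which the replicate numbers would match to ChIP lists, was analysed here. With no read counts, the limit set by depth was not measured.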
